A study of Mus musculus with 19 samples.

Results

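The costimulation genes Cd28, Icos, Cd27, Cd40lg and Tnfsf8 were followed through mouse thymocyte development. They are 5 of the 28692 genes counted, picked by name rather than by a threshold on their values, though with earlier results of these data known, and were read together with the antibodies to their products among the 111 in the panel. The panel held 2 of these, CD28 and CD278 (ICOS). CD27, CD40L and CD30L, the products of Cd27, Cd40lg and Tnfsf8, were therefore measured as RNA only. On the GRCm38 assembly Cd28 (ENSMUSG00000026012) spans chr1:60716800-60773359 and Icos (ENSMUSG00000026009) spans chr1:60977927-61000320, both on the plus strand. Cd27 (ENSMUSG00000030336) spans chr6:125232622-125237010 on the minus strand, Cd40lg (ENSMUSG00000031132) chrX:57212143-57224042 on the plus strand and Tnfsf8 (ENSMUSG00000028362) chr4:63831308-63861347 on the minus strand. Over all cells kept, Cd27 had 214326 UMIs (unique molecular identifiers, one per captured molecule), Cd28 126339, Icos 14501, Cd40lg 8432 and Tnfsf8 2992, so the last of these carried the largest counting error.

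The samples were thymi of female mice aged 4 to 8 weeks, profiled by CITE-seq, which counts RNA and antibody-bound DNA tags in the same cells. Wild-type C57BL/6 mice (B6, 5 mice) were compared with mice whose thymocytes take one fate. The CD4-fated mice were AND and OT-II, which carry MHCII-restricted T cell receptor (TCR) transgenes, and MHCI-/- (B2m-/-), which have diverse receptors. The CD8-fated mice were F5 and OT-I, with MHCI-restricted TCR transgenes, and MHCII-/- (H2-Ab1-/-). There were 2 mice of each genotype. AND and F5 mice also lacked Rag1, so their thymocytes carried the transgenic receptor alone, and no such deletion was given for OT-I and OT-II mice. MHC-deficient mice and B6 replicates 1, 2 and 3 were sorted for CD5+TCRb+ cells, and the others were not sorted. OT-I, OT-II and B6 replicates 4 and 5 came from one experiment that held no other mice, so the OT family and that experiment cannot be told apart.

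CD28 and ICOS are receptors of the same immunoglobulin family. They add to the TCR signal when they bind B7 molecules and ICOS ligand, respectively, on antigen-presenting cells. CD27 is a receptor of the tumour necrosis factor (TNF) receptor family whose ligand is CD70. CD40L and CD30L are TNF-family ligands shown by T cells to CD40 and CD30. CD40L is best known as the helper signal that CD4+ T cells give to B cells and, in the thymus, to medullary epithelium. Thymocytes that express both coreceptors (double positive, DP) and receive a TCR signal are positively selected and become CD4 or CD8 single positive (SP) cells.

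In all, 69025 cells were kept of 85389 barcodes in 19 lanes, with a median of 1502 to 7207 RNA UMIs per cell by lane. Barcode sequences seen in more than one lane numbered 644 of 68377. OT-I replicate 2, OT-II replicate 2 and B6 replicate 5 were shallow in RNA (medians of 3172, 2137 and 1525 UMIs per cell), and AND replicate 2 was shallow in antibodies. B6 replicate 4 had a median of 3030 RNA UMIs per cell, below that of OT-I replicate 2. B6 replicate 5 stood apart in its clusters: it had fewer than 10 cells of the CD8 SP class, and its mature SP class had a CD8a antibody level of 238 per 10000 antibody UMIs against 19.7 to 32.3 in the other 4 B6 mice. Results on classes therefore hold a mixture of SP cells in that mouse. In the other 4, the CD8a level was near that of late B6 cells gated on CD4 antibody (11.1 to 24.2, gates below). Cells gated on CD8a were at 713 to 830. Mature SP set beside CD8 SP is thus also a comparison of lineages in those mice. Positively selected cells (31513) were ordered by RNA, without the 5 genes, and cut into 10 bins of equal cell number. In fated mice, 477 cells on the RNA branch of the other lineage were left out of the levels in bins and late cells. Late cells are those of bins 8 to 10, the most mature. They numbered 3497 in the CD4-fated mice and 2893 in the CD8-fated mice, and 141 to 1005 per mouse. All levels below are sums over the cells of a mouse, as CPM (gene UMIs scaled by the mouse's total RNA UMIs to the usual counts per 1000000 UMIs) or antibody UMIs per 10000, and the mouse is the replicate. Labels and antibodies matched in late cells, which is in part built in, as cells on the other branch were left out. CD4 antibody was at 711 to 1702 per 10000 in CD4-fated mice and CD8a at 564 to 910 in CD8-fated mice. The exception was F5, where late cells still held CD4 antibody at 190 and 545 per 10000, against 43.2 to 64.3 in MHCII-/- and OT-I mice.

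In late thymocytes Cd40lg, Cd28 and Tnfsf8 RNA were higher in CD4-fated than in CD8-fated mice. Cd40lg differed by 37.0-fold, Cd28 by 2.22-fold and Tnfsf8 by 2.54-fold (edgeR, family of genotypes as a covariate). Icos RNA, Cd27 RNA and both antibodies did not pass an adjusted p of 0.05. Thus 3 of the 5 genes and 0 of the 2 antibodies were called, where 10.6% of the 9629 genes tested and 9.91% of the 111 antibodies were. At an unadjusted p of 0.05 neither antibody passed, and DESeq2 also called neither.

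**Figure D1:**
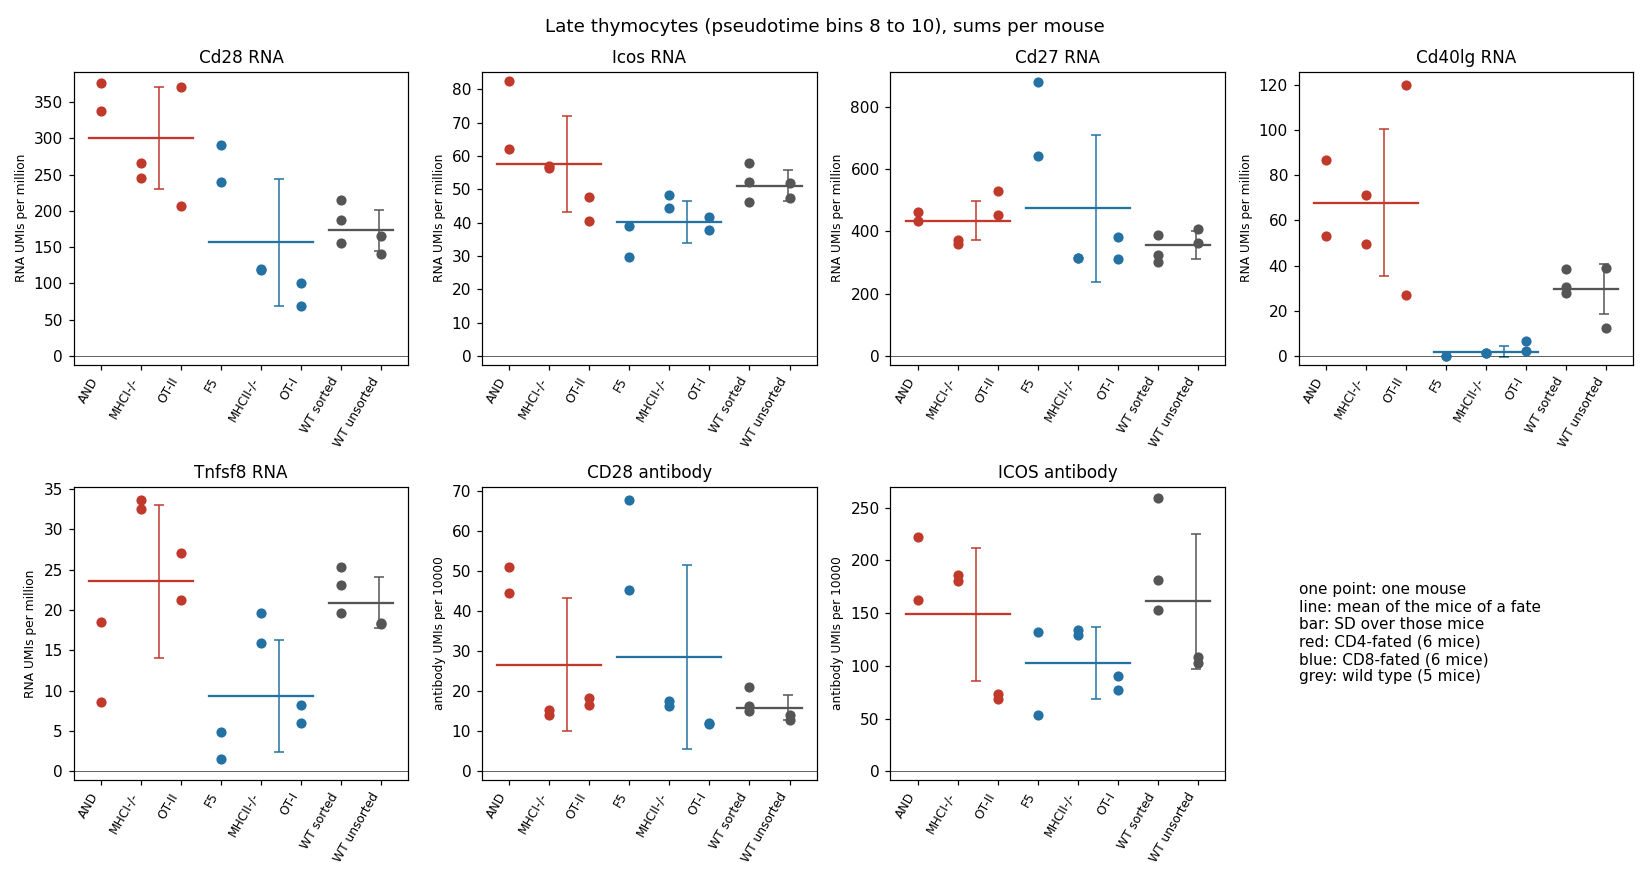
RNA level in CPM, or antibody UMIs per 10000, in late thymocytes of each mouse (points), with the mean (line) and SD (bar) over CD4-fated, CD8-fated and wild-type mice. Cd40lg is at 0 to 6.57 in the 6 CD8-fated mice and at 26.8 to 120 in the 6 CD4-fated mice, whereas for CD28 antibody the AND and F5 mice stand at 44.6 to 67.9 above all others, whichever the fate.

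Among the receptors, Cd28 RNA stood at 338 and 376 CPM in the AND mice, 246 and 266 in the MHCI-/- mice, and 371 and 207 in the OT-II mice. It stood at 240 and 291 in the F5 mice, 119 and 119 in the MHCII-/- mice, and 101 and 68.5 in the OT-I mice. The fates overlapped only through F5, whose mice were above the lowest CD4-fated mouse. The log2 difference was 1.15 ± 0.20 (SE, adjusted p = 0.00179). B6 late cells, which hold both lineages, were between the means of the fates at 173 ± 28.9 (SD, n = 5).

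Icos RNA, which encodes the inducible costimulator, was 57.6 ± 14.4 CPM in CD4-fated mice and 40.2 ± 6.34 in CD8-fated mice (SD, n = 6 each). Both AND mice (61.9 and 82.6) and both MHCI-/- mice (57.0 and 56.3) were above every CD8-fated mouse, and the OT-II mice (40.5 and 47.6) were within the CD8-fated range of 29.8 to 48.4. The log2 difference of 0.53 ± 0.18 (SE) had an adjusted p of 0.0795, and it passed without OT-II replicate 1 (0.64, adjusted p = 0.0444).

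Cd27 RNA was the most abundant of the 5 in late cells and showed no lineage difference that could be told from the spread between mice, with a log2 difference of 0.04 ± 0.18 (SE, adjusted p = 0.928). The F5 mice were highest at 643 and 879 CPM. All other mice, CD4-fated, CD8-fated or B6, were at 300.3 to 529. F5 were also the mice whose late cells held CD4 antibody and lay earlier in the late bins. The part of either in the Cd27 level was not tested.

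Among the ligands, Cd40lg was the only member whose mice did not overlap between the fates, as held for 3.34% of genes. It was at 53.2 and 86.8 CPM in the AND mice, 71.0 and 49.5 in the MHCI-/- mice, and 26.8 and 120 in the OT-II mice. In the MHCII-/- mice it was at 1.15 and 1.45, in the OT-I mice at 2.14 and 6.57, and in both F5 mice at 0. The log2 difference was 5.21 ± 0.51 (SE, adjusted p = 1.68e-05). Within the AND and F5 pair, 575 Cd40lg UMIs of 8300193 stood against 0 of 2544011. With a floor of 3 counts over both F5 mice, the pooled counts put AND at least 58.7-fold higher. That bound allows for counting error in F5 only, not for the spread between mice. The ratio was 43.3 between MHCI-/- and MHCII-/- (333 against 20 UMIs) and 16.4 between OT-II and OT-I (146 against 24 UMIs).

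Tnfsf8 RNA, the CD30 ligand, was at 18.5 and 8.56 CPM in the AND mice, 33.6 and 32.5 in the MHCI-/- mice, and 21.2 and 27.0 in the OT-II mice. CD8-fated mice were lower, at 4.80 and 1.49 in F5 (9 and 1 UMIs), 19.6 and 15.8 in MHCII-/-, and 8.2 and 6.02 in OT-I. The log2 difference was 1.35 ± 0.24 (SE, adjusted p = 0.00231). Levels of the 2 fates overlapped, but within each pair of genotypes both CD4-fated mice were above both CD8-fated mice. Without the family covariate the difference no longer passed (log2 1.12 ± 0.44, adjusted p = 0.171).

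Neither antibody passed between the fates. CD28 antibody was at 44.6 and 51.1 per 10000 in the AND mice and 67.9 and 45.3 in the F5 mice, and at 11.7 to 18.4 in the other 8 fated mice. B6 mice were at 12.9 to 21.1. The CD4-fated over CD8-fated log2 difference was -0.19 ± 0.25 (SE, adjusted p = 0.655), and it turned to 0.03 when scaled by library size, which moved the median of all antibodies to 0.27. AND replicate 2 (51.1) and F5 replicate 2 (45.3) were unsorted mice of an experiment whose other mice were all sorted. Of these others, the MHC-deficient mice were at 13.9 to 17.6 and B6 replicates 2 and 3 at 15.2 and 16.3. The OT mice, transgenic and unsorted, were of another experiment and at 11.7 to 18.4. AND and F5 differ from the other fated mice in Rag1 and in their transgenes, and from the other mice of their experiments in sorting. These cannot be told apart, and late F5 cells also held CD4 antibody, as given above. The part of each in the CD28 antibody level was not tested. ICOS antibody was 149 ± 63.3 in CD4-fated mice and 103 ± 34.0 per 10000 on the CD8-fated side (SD, n = 6 each), a log2 difference of 0.24 ± 0.34 (SE, adjusted p = 0.684). OT-II and OT-I mice, of one experiment, were at 68.6 to 90.5, and the 2 B6 mice of that experiment were at 103 and 108 against 153 to 259 in the other 3.

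The lineage difference was then taken within each pair of genotypes. The background was 5.09% of genes called between AND and F5, 5.12% between MHCI-/- and MHCII-/-, and 4.17% between OT-II and OT-I, and 26.1%, 22.5% and 12.6% of antibodies. Cd28 RNA was higher on the CD4-fated side by a log2 of 1.11 ± 0.27 in the MHC pair and 1.76 ± 0.28 in the OT pair (SE, adjusted p = 0.0325 and 0.00351). Its value in AND and F5 was 0.61 ± 0.27 (adjusted p = 0.300). Icos passed between AND and F5 alone (1.21 ± 0.25, adjusted p = 0.0148), against 0.30 ± 0.23 and 0.12 ± 0.25 in the MHC and OT pairs. Tnfsf8 passed between AND and F5 and between OT-II and OT-I (adjusted p = 0.0416 and 0.0330). In the AND and F5, MHC and OT pairs the log2 values of Cd40lg were 10.9 (with 0 UMIs in F5), 5.46 and 4.30. Those of Cd27 differed in sign, at -0.60, 0.22 and 0.51, as did those of ICOS antibody, at 0.43, 0.76 and -0.49. CD28 antibody was called lower in AND than in F5 by edgeR (log2 -0.97 ± 0.32, adjusted p = 0.0286). The unscaled levels differed less and overlapped. They were 44.6 and 51.1 in the AND mice (mean 47.9) against 67.9 and 45.3 in the F5 mice (mean 56.6). The part of edgeR's scaling in that log2 value was not tested. The lineage-by-family terms, which test by edgeR whether the pairs differ, passed for no member. Their adjusted p was 0.352 for Cd28, 0.280 for Icos, 0.257 for Cd27, 0.711 for Cd40lg, 0.697 for Tnfsf8, 0.0746 for CD28 antibody and 0.389 for ICOS antibody, where 0.964% of genes and 22.5% of antibodies passed. By edgeR's test without adjustment, p was 0.0332 for Cd28, 0.0195 for Icos, 0.0151 for Cd27 and 0.0188 for CD28 antibody. The terms passed for Cd40lg with no filter on low counts (adjusted p = 0.00837) and for CD28 antibody with cells ordered by a maturation score (0.0452).

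For the share of late cells that held a UMI, each cell was first thinned to 1500 RNA UMIs. Here p was adjusted over the 5 members only, a far smaller set than in the edgeR tests. Cd40lg was seen in 9.47% ± 3.92 of CD4-fated and 0.252% ± 0.365 of CD8-fated late cells (SD over 6 mice each; exact permutation test over mice, two-sided, p = 0.00216, the smallest this design allows, adjusted p = 0.0108). Cd28 was seen in 35.3% ± 7.06 against 20.03% ± 10.8 (exact permutation p = 0.0216, adjusted p = 0.0361), a call that was lost when any one of 9 of the 12 mice was left out (either AND, MHCI-/-, MHCII-/- or OT-I mouse, or OT-II replicate 1), with differences from 13.5 to 16.2 percentage points. Icos was seen in 8.46% ± 1.26 against 5.67% ± 1.16 (exact permutation p = 0.00433, adjusted p = 0.0108). This did not hold at 1000 UMIs, where Icos was at 5.54% against 4.57% (exact permutation p = 0.247). Unthinned, the Icos difference turned (19.7% against 22.9%, exact permutation p = 0.519) and the Cd28 call was lost (67.7% against 53.6%, exact permutation p = 0.190). Tnfsf8 was seen in 3.95% against 1.76% (adjusted p = 0.0541) and Cd27 in 48.0% against 48.7% (adjusted p = 0.918, both exact permutation tests).

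Mean levels of the genes were not all highest at the same place along the order of positive selection, though Cd40lg and Icos lay close. Peak places were not compared by a test. Cd27 RNA was highest at the start and Cd28 in bins 2 and 3, Cd40lg came in the middle in CD4-fated mice, Icos in bins 5 and 6, and Tnfsf8 only late. All 5 genes and both antibodies changed over the bins in both lineages by edgeR, with adjusted p of 1.05e-08 or less for the genes and 1.07e-06 or less for the antibodies. The order came from RNA of the same cells, so such a change is in part built in, and 47.7% of genes in the CD4 lineage and 54.2% in the CD8 lineage did so (49.5% and 70.3% of antibodies).

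**Figure D2:**
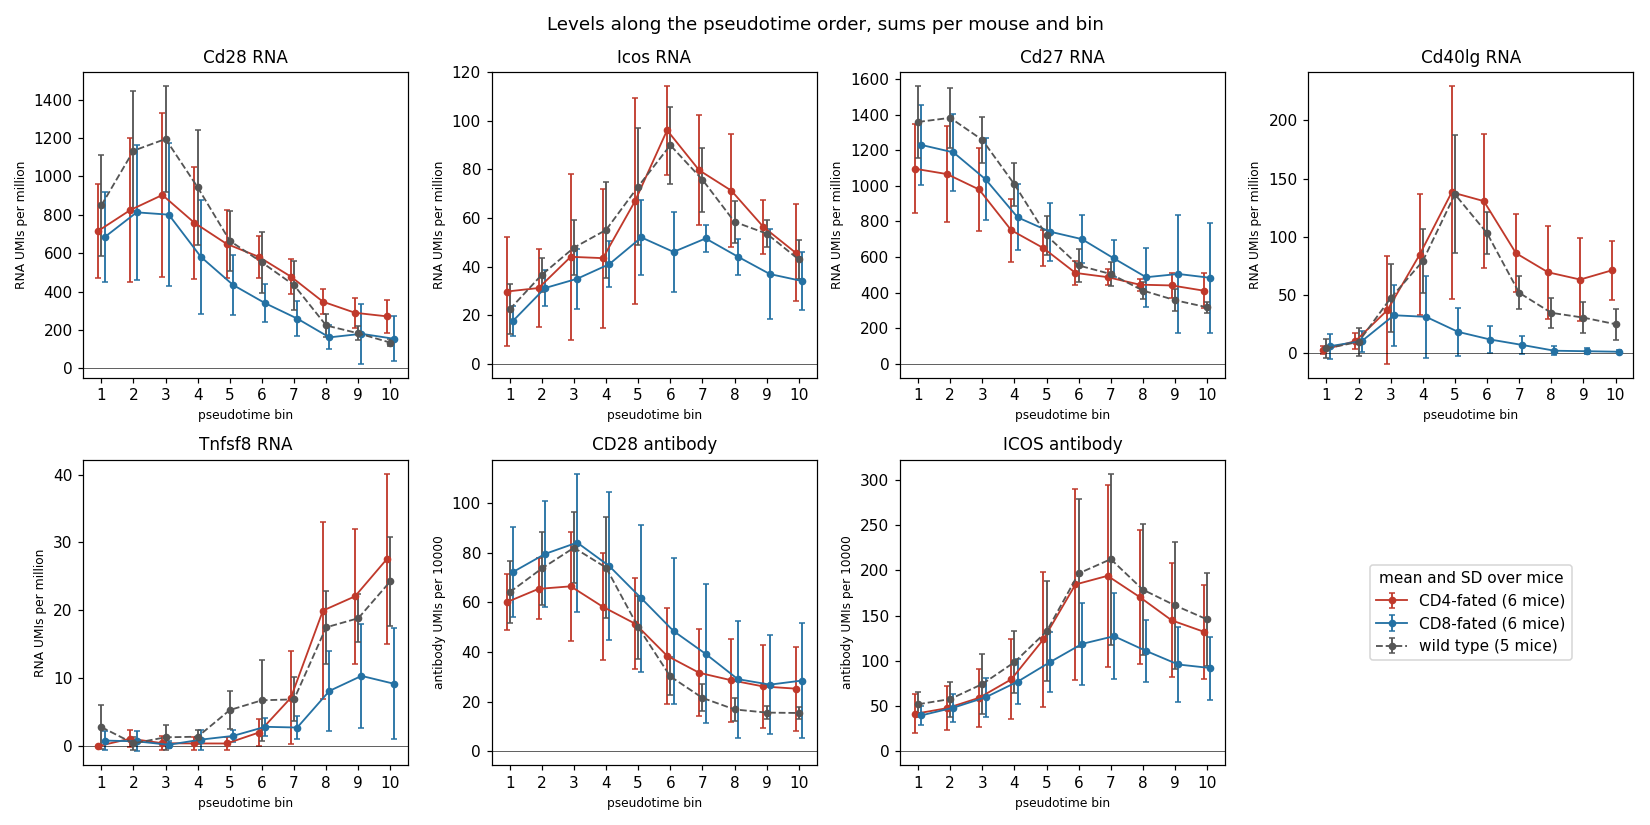
Level of each member in 10 pseudotime bins of equal cell number (x axis, 1 is the earliest), as RNA CPM or antibody UMIs per 10000, mean and SD over CD4-fated, CD8-fated and wild-type mice. Mean Cd40lg is level between the fates in bin 3 and differs by the test from bin 5 on. In bin 5 OT-II and OT-I mice are still level, at 39.1 and 37.2. The mean reaches 138 in CD4-fated mice in bin 5 and ends at 1.31 in CD8-fated mice in bin 10.

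Cd40lg had the most divergent course. It began at 2.94 ± 3.23 CPM in CD4-fated mice and 6.07 ± 10.6 on the CD8-fated side in bin 1 (SD, n = 6 each), and did not pass the filter on low counts there and in bin 2. In bin 3 the means of the fates were level, at 37.2 ± 46.1 and 32.6 ± 26.2, but the pairs went different ways. MHCI-/- and MHCII-/- mice were at 95.9 and 57.9 there, OT-II and OT-I at 8.48 and 35.6, and AND and F5 at 7.14 and 4.45. CD4-fated mice went on to 138 ± 91.5 in bin 5 and 71.3 ± 25.5 in bin 10, whereas CD8-fated mice were at 18.4 ± 20.9 and 1.31 ± 1.13. The CD8-fated mean was highest in bin 3, but OT-I mice were highest in bin 4, at 56.0. The mean of the F5 mice was at most 4.45 in any bin. The difference passed in each bin from 5 to 10, with a log2 of 3.27 ± 0.53 in bin 5 and 5.2 ± 0.41 in bin 10. B6 mice, with both lineages present, peaked at 137 ± 50.5 in bin 5 and ended at 25 ± 13.4.

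Cd28 RNA peaked at 903 ± 426 CPM in bin 3 of CD4-fated mice and at 813 ± 350 in bin 2 of CD8-fated mice (SD, n = 6 each). It then ended at 271 ± 86.2 and 154 ± 116 in bin 10. The fates differed in each bin from 5 to 10, first by a log2 of 0.60 ± 0.15 and most in bin 8, by 1.17 ± 0.18. The call in bin 5 (adjusted p = 0.0424) was lost when any one of 9 of the 12 mice was left out (either AND, F5, MHCI-/- or MHCII-/- mouse, or OT-II replicate 1). CD28 antibody took the same shape, from 66.5 ± 21.9 per 10000 in bin 3 to 25.3 ± 16.9 in bin 10 of CD4-fated mice, and 84.1 ± 27.8 to 28.5 ± 23.0 in CD8-fated mice. It passed in no bin between the fates.

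Icos RNA climbed from 29.7 ± 22.4 CPM in bin 1 to 96.1 ± 18.3 in bin 6 of CD4-fated mice and was 45.7 ± 19.9 in bin 10. In CD8-fated mice it went from 17.6 ± 6.36 to 52.0 ± 15.4 in bin 5. The fates differed in bins 6, 7 and 8 (log2 of 1.09 ± 0.17, 0.65 ± 0.16 and 0.72 ± 0.19). Of these calls, bin 6 held whichever mouse was left out, whereas bin 7 was lost without AND replicate 2, F5 replicate 1, MHCI-/- replicate 2 or either MHCII-/- mouse, at 0.53 to 0.65, and bin 8 without any AND, F5, MHCI-/- or MHCII-/- mouse, at 0.60 to 0.75. ICOS antibody peaked one bin after CD4-fated Icos RNA, in bin 7, at 194 ± 101 per 10000 in CD4-fated, 127 ± 47.5 in CD8-fated and 212 ± 94.6 in B6 mice. It passed in no single bin between the fates.

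Cd27 RNA declined in both fates, from 1097 ± 250.0 to 410 ± 100 CPM between bins 1 and 10 of CD4-fated mice and from 1230 ± 223 to 483 ± 308 in CD8-fated mice. In the main fit it passed in no bin between them, with its largest log2 difference in bin 6 (-0.43 ± 0.15, edgeR adjusted p = 0.130). DESeq2 and a replicate block each called 1 bin. Tnfsf8 did not pass the filter on low counts in bins 1 to 7, where its mean was at most 7.11 in either fate. It reached 27.6 ± 12.5 in bin 10 of CD4-fated and 10.3 ± 7.61 in bin 9 of CD8-fated mice, and the fates differed in bins 8 and 10 (log2 of 1.27 ± 0.28 and 1.48 ± 0.31). The bin 8 call was lost without MHCII-/- replicate 2 (1.18) and with the maturation-score order (1.31), and both calls were lost with no family covariate (1.11 and 1.02). With no filter, bins 7 and 9 passed as well (1.45 ± 0.47 and 0.90 ± 0.27, edgeR adjusted p = 0.0414 and 0.0216).

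The share of all genes called between the fates grew along the order, from 0% in bin 1, 0.0499%, 0.03% and 0.115% in bins 2 to 4, and 2.57% in bin 5, to 4.51%, 5.28%, 5.33%, 5.11% and 9.62% in bins 6 to 10. For antibodies it was 0% in bins 1 to 5 and 5.41%, 9.91%, 9.91%, 7.21% and 11.7% in bins 6 to 10. The lineage-by-bin terms, which test whether the courses differ in shape, passed for Cd28 (adjusted p = 2.6e-06), Cd40lg (1.32e-18), Tnfsf8 (0.0357) and ICOS antibody (8.91e-04). They did not for Icos (0.114), Cd27 (0.445) or CD28 antibody (0.668), where 17.6% of genes and 25.2% of antibodies passed. With cells ordered by a maturation score instead, Tnfsf8 no longer passed (adjusted p = 0.681) and Icos did (0.0254).

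RNA and antibody levels moved together along the order. Over the 20 points of 10 bins and 2 fates, Pearson's r of the mean levels was 0.84 for Cd28 with CD28 antibody and 0.90 for Icos with ICOS antibody, and within a fate it was 0.85 to 0.98. These points share mice, libraries and the order. In late cells CD28 antibody was at 11.7 to 18.4 per 10000 in 8 of the 12 fated mice. This was close to the 13.8 ± 3.51 (SD, n = 2) of B cells. Whether a fate difference in it could be detected at that level was not tested. Over the same 20 points, among 6881 genes compared, the profile most like that of Cd28 was Gabarapl2, followed by Chdh, Tox, Pnrc1 and Ets1. For Icos it was Bach2, Erdr1, Eno1, Tnfsf11 and Gnl1. For Cd27 it was Camk4, Rhoh, Arap2, Senp6 and Ubn1, and for Cd40lg Ptgir, Sepw1, Fam134b, Zbtb7b and Cd53. Zbtb7b encodes ThPOK, the CD4-lineage transcription factor. For Tnfsf8 the genes of most similar profile included Psme2b, Tpt1, Gm11808 and Tgfbr2.

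Wild-type mice gave the comparison inside one animal. Late B6 cells were gated on CD4 and CD8a antibody counts, and the CD4-gated cells were compared with the CD8-gated cells of the same mouse (edgeR, mouse as a block). Cd28, Icos, Cd40lg and Tnfsf8 RNA and ICOS antibody were higher on the CD4 side, each in 5 of 5 mice, where 26.2% of genes and 36.9% of antibodies went one way in all 5. By the test 4 of 5 genes and 1 of 2 antibodies were called, against 23.4% of 8882 genes and 30.6% of antibodies.

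Cd40lg was at 59.9, 54.2, 68.4, 28.6 and 57.0 CPM in the CD4-gated cells of B6 replicates 1 to 5. In the CD8-gated cells it was at 2.75, 0.818, 5.01, 0 and 0, from 0 to 9 UMIs a mouse. The log2 difference was 4.72 ± 0.24 (SE, adjusted p = 2.87e-28). Cd28 was at 287, 292, 233, 250 and 170 against 123, 76.9, 63.4, 92.7 and 73.6 (log2 1.58 ± 0.08, adjusted p = 8.23e-29). Levels in these gates did not overlap for either gene. The same held for Icos (54.3 to 70.7 against 30.7 to 51.5) and Tnfsf8 (20.2 to 31.1 against 10.2 to 19.6). The share of all genes without such overlap is not given.

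Icos was 61.5 ± 6.32 CPM in CD4-gated and 39.5 ± 8.55 in CD8-gated cells (SD, n = 5), a log2 difference of 0.59 ± 0.11 (SE, adjusted p = 1.2e-05). Tnfsf8 was 25.7 ± 4.78 against 15.3 ± 3.35, a log2 difference of 0.70 ± 0.16 (adjusted p = 5.6e-04). The Tnfsf8 call was not kept by DESeq2 (adjusted p = 0.0969) or with the maturation-score order (0.307). ICOS antibody was 186 ± 68.9 against 129 ± 62.3 per 10000, a log2 difference of 0.66 ± 0.08 (adjusted p = 4.91e-04). Cd27 was 359 ± 52.6 against 338 ± 43.5 (log2 0.06 ± 0.06, adjusted p = 0.535), higher on the CD4 side in 2 of 5 mice. CD28 antibody was 15.6 ± 2.63 against 15.2 ± 3.03 per 10000 (log2 0.15 ± 0.05, adjusted p = 0.0683).

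Across the cell classes of the wild-type thymus, formed without the 5 genes, the members did not all share a peak. Cd28 and Cd27 were highest among named classes in signaled DP cells, which show the marks of a recent TCR signal. For Cd27 the difference from quiescent DP cells did not pass in the main fit. Cd40lg was highest in signaled DP and negative selection-like cells (94.1 ± 32.6 and 88.1 ± 26.2 CPM, SD, n = 5, a difference that did not pass), and Tnfsf8 in Treg-like and negative selection-like cells. The signaled DP class pools 4 clusters. One of them (cluster 9, 2737 cells) had Itm2a alone of the class markers among its leading genes, beside Id2, Bcl2 and Il7r, and came 49.6% from CD4-fated, 7.93% from CD8-fated and 42.5% from B6 mice, and its part in the Cd40lg level of the class was not tested. Icos was highest in a cluster that held the NKT marker genes but was left unnamed. Background shares of genes called in the class contrasts were 51.6% for signaled over quiescent DP, 42.3% for mature SP over signaled DP, 41.6% for CD8 SP over signaled DP, 31.8% for negative selection over signaled DP and 21.2% for Treg over mature SP. For antibodies they were 18%, 23.4%, 34.2%, 52.3% and 45.9%.

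**Figure D3:**
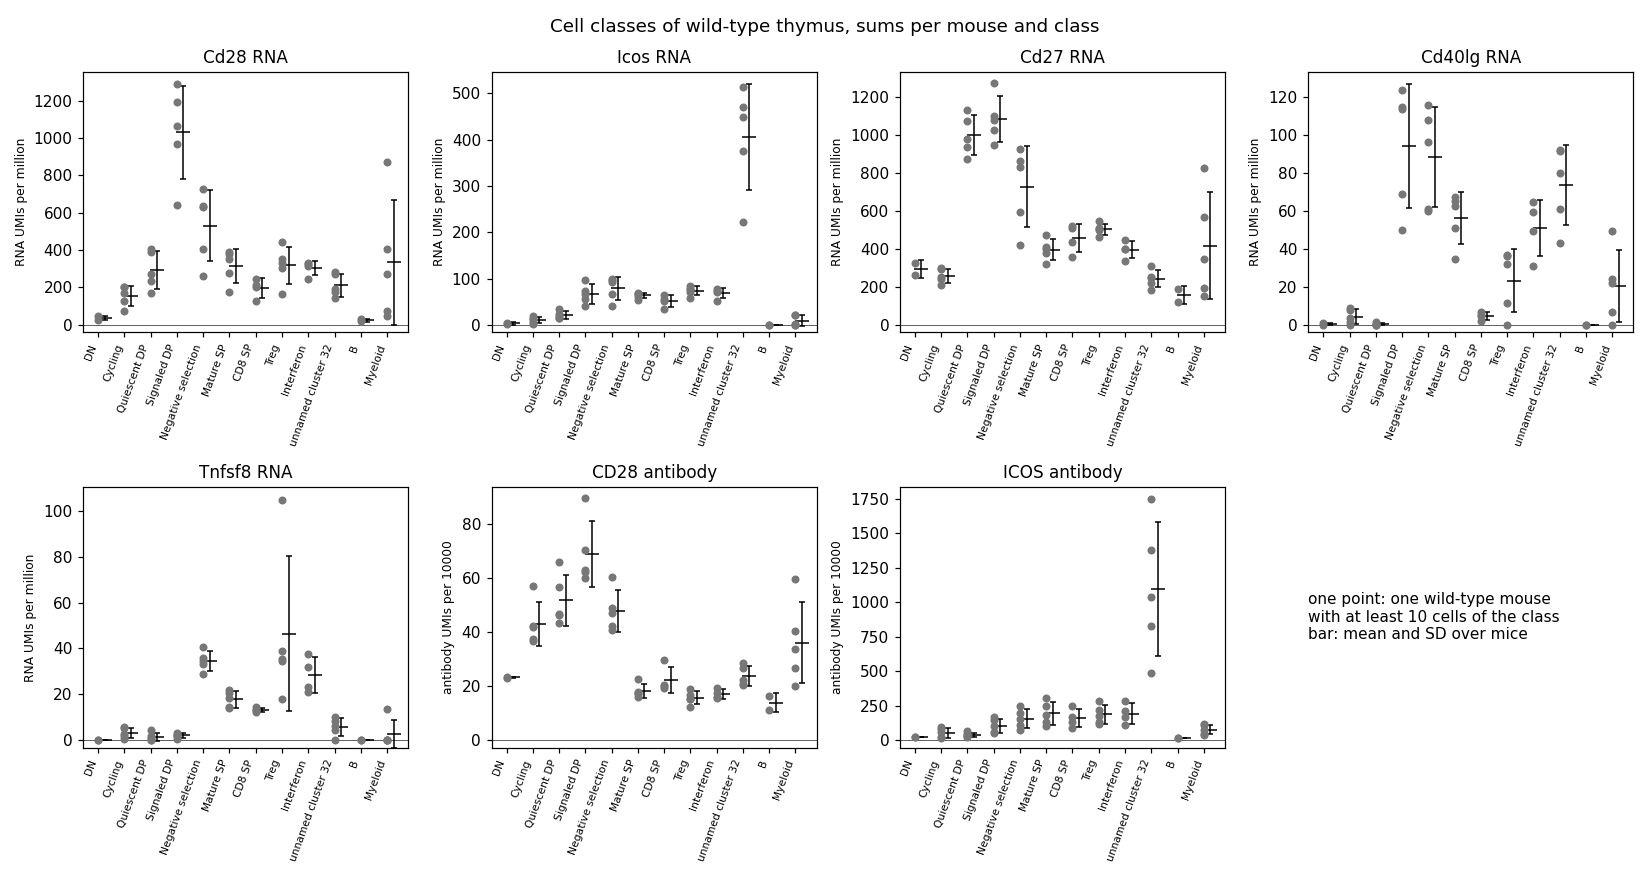
Level in each cell class of wild-type mice with at least 10 cells of it (points), with mean and SD over mice (bars), as RNA CPM or antibody UMIs per 10000. Icos RNA (406) and ICOS antibody (1094) stand out in unnamed cluster 32, and Tnfsf8 in Treg is drawn up by one mouse at 105.

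From quiescent to signaled DP, Cd40lg, Cd28 and Icos rose, and so did both antibodies. Cd28 was at 391.6, 406, 234, 274 and 170 CPM in the quiescent DP cells of B6 replicates 1 to 5, and at 1062, 1192, 968, 1289 and 643 in their signaled DP cells. The log2 difference was 1.94 ± 0.10 (SE, adjusted p = 2.74e-19). Cd40lg was at 1.21, 0, 0, 0.112 and 0.656 against 114, 114, 124, 49.9 and 68.8, that is, 7 UMIs against 1253 over the 5 mice. Icos was 21.3 ± 8.53 against 66.0 ± 21.1 (log2 1.83 ± 0.15). CD28 antibody was 51.7 ± 9.42 against 68.9 ± 12.2 per 10000 (log2 0.53 ± 0.13) and ICOS antibody 38.2 ± 16.3 against 104 ± 50.4 (log2 1.53 ± 0.14). Cd27 (998 ± 104 against 1085 ± 121, adjusted p = 0.0544) and Tnfsf8 (1.31 ± 1.77 against 2.01 ± 0.945, adjusted p = 0.179) did not pass.

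From signaled DP to the SP classes the members went separate ways. The mature SP class held little CD8a antibody in most B6 mice, as given above, so setting it beside CD8 SP also compares lineages. In mature SP cells Cd28 fell by 1.48 and Cd27 fell by 1.2 on the log2 scale, to 315 ± 89.0 and 396 ± 56.1 CPM, and CD28 antibody fell by 1.87, to 18.1 ± 2.52 per 10000. Tnfsf8 rose by 3.46 ± 0.28 to 17.7 ± 3.66, and ICOS antibody rose by 0.98 ± 0.14 to 194 ± 82.6 although Icos RNA did not pass (0.16 ± 0.12, adjusted p = 0.278). In CD8 SP cells (4 mice) Cd28 fell by 2.33 to 196 ± 51.5, and Cd40lg fell by 4.19 to 4.56 ± 2.10. Tnfsf8 rose there by 3.04 ± 0.31 to 13.2 ± 0.811, and ICOS antibody did not pass (0.34 ± 0.15, adjusted p = 0.0788). Cd40lg in mature SP cells was 56.2 ± 13.6, a fall by 0.48 on the log2 scale, which did not pass with the fated mice, CD4-fated and CD8-fated, added to the fit (-0.33, adjusted p = 0.107). With library-size scaling the median of all genes was at -0.26 in both contrasts, and Icos in mature SP turned to -0.08.

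Negative selection-like cells and Treg-like cells had the highest Tnfsf8 of the named classes. In negative selection cells Tnfsf8 was at 34.7, 36.0, 28.8, 40.6 and 33.1 CPM in B6 replicates 1 to 5, against 0.616 to 3.23 in signaled DP cells (log2 4.27 ± 0.29, adjusted p = 1.01e-14). Cd28 fell by 0.89, Cd27 fell by 0.45 and CD28 antibody fell by 0.65 on the log2 scale, whereas Cd40lg was 88.1 ± 26.2 (log2 -0.04 ± 0.13, adjusted p = 0.854). Icos and ICOS antibody were higher by 0.37 ± 0.14 and 0.45 ± 0.14 (adjusted p = 0.0309 and 0.0110), calls that were lost when doublets were kept (0.11 and 0.03), as was that of CD28 antibody (-0.34). The Icos call was also lost with library size (0.29) and without B6 replicate 1, 3 or 4 (0.34, 0.37 and 0.31). In Treg cells Tnfsf8 was at 34.7, 35.6, 39.0, 18.1 and 105 CPM, the last from 9 UMIs in B6 replicate 5, and was higher than in mature SP cells by 0.88 ± 0.21 (adjusted p = 0.00227). Cd40lg was lower there, at 32, 36.3, 36.5, 11.4 and 0 (log2 -1.07 ± 0.18, adjusted p = 2.69e-05), and CD28 antibody differed by -0.35 (adjusted p = 0.0306), a call that was lost without B6 replicate 1, 2 or 5 (-0.31, -0.38 and -0.27), with library size (-0.20) or with doublets kept (-0.14). Cd28, Icos and Cd27 RNA and ICOS antibody did not pass. The mature SP class of B6 replicate 5 held CD8a antibody as above, and without that mouse Tnfsf8 and Cd40lg kept their calls.

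Cluster 32 (399 cells, 164 of them wild-type) had the NKT markers Zbtb16, Klrb1c, Il2rb, Tbx21 and Xcl1 nearest by score, but none among its leading genes, which were S100a6, S100a4 and Ccl5 among others. Its Icos RNA was at 449, 222, 375, 514 and 470 CPM in B6 replicates 1 to 5, and its ICOS antibody at 828.6, 485, 1747, 1376 and 1035 per 10000. The next highest class by antibody, mature SP, was at 105 to 304, below all mice of the cluster. Its CD28 antibody (23.7 ± 3.65) and Cd27 RNA (243 ± 45.6) were low.

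Ranked by level, the classes formed a gradual order for most members, and few neighbours in it were apart beyond their spread. Double negative (DN) cells, the earliest, were low in all 5 genes in the 2 B6 mice that held 10 or more: Cd28 was 36.6 ± 13.0 CPM, Icos 2.81 ± 2.77 and Cd27 293 ± 47.7, Cd40lg was at 0 and 0.854, and Tnfsf8 was at 0 in both. Cycling cells held Cd28 at 155 ± 54.5, Icos at 10.5 ± 6.27, Cd40lg at 4.34 ± 3.77 and Cd27 at 258 ± 37.1 (SD, n = 5). Cells with an interferon signature held Icos at 68.4 ± 11.5, Cd40lg at 51.0 ± 14.8 and Tnfsf8 at 28.4 ± 7.77 (n = 4), beside 63.3 ± 6.02, 56.2 ± 13.6 and 17.7 ± 3.66 in mature SP cells (n = 5), a difference that was not tested. The levels of Cd28, Cd40lg, Tnfsf8 and Cd27 in signaled DP, mature SP, CD8 SP, negative selection and Treg cells overlapped with those of the class next in that order. Classes further apart in it did not all overlap. Tnfsf8 was at 0.616 to 3.23 in signaled DP cells and at 12.4 to 14.3 in CD8 SP cells. An unnamed cluster of shallow cells (cluster 25, median 1079 RNA UMIs) was higher than signaled DP in Cd27, at 1871 ± 234, and overlapped with it in Cd28 (1255 ± 499, n = 3). The myeloid class, whose Cd28 ranged from 44.5 to 872 in single mice, also held T cell antibodies and was not used as a background.

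B cells (45 cells in 2 B6 mice) were taken for the background of Cd28, Icos and Cd40lg. B cells can express CD27 and CD30L, so their Cd27 and Tnfsf8 are given as values only. After thinning to 1500 UMIs, Icos, Cd40lg and Tnfsf8 were each in 0 of 41 B cells, which allows a share of up to 7.32%, counting error only. Cd28 was in 4.35% ± 6.15 and Cd27 in 22.0% ± 0.342 (SD, n = 2). In signaled DP cells Cd28 was in 74.1% ± 11.4 and Cd27 in 75.6% ± 3.21, and Cd40lg was in 9.48% ± 2.34 (n = 5). The share of Tnfsf8 was 3.42% ± 1.66 in negative selection and 4.52% ± 2.45 in Treg cells, under the limit that the few B cells allow. Median depth before thinning was 3489 RNA UMIs in B cells, 3710 in signaled DP and 4749 in Treg cells. CD28 antibody was 13.8 ± 3.51 per 10000 in B cells, so its level in mature SP (18.1) and Treg cells (15.7) was close to this background. ICOS antibody was 16.2 ± 1.71 in B cells, below that of every other class. No isotype control was among the antibodies.

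The wider pathway was read from 3 lists. Of 6 binding partners of the members on other cells (Cd80, Cd86, Icosl, Cd70, Cd40 and Tnfrsf8), Cd86 alone passed the filter on low counts. It did not pass the late test and was lower in CD4-gated than in CD8-gated B6 cells (log2 -0.84 ± 0.26, adjusted p = 0.0125). Of 10 other costimulatory and coinhibitory genes, 8 were tested in late cells, 3 were higher and 1 was lower in CD4-fated mice (10.6% of all genes were called), with a list median of 0.69 against -0.0035 for all genes. Tnfrsf4, which encodes OX40, was higher by 3.39 ± 0.37, Tnfsf11, which encodes RANKL, by 1.94 ± 0.39 and Tnfrsf18, which encodes GITR, by 0.72 ± 0.18. Cd226 was lower by 1.51 (adjusted p = 8.87e-04). In the B6 gates, where 23.4% of all genes were called, 5 of the 8 were higher and 2 lower, with a median of 0.58. These included Tnfrsf4 (4.09 ± 0.18), Tnfsf11 (1.56 ± 0.34), Ctla4 (1.19 ± 0.32) and Cd226 (-1.98 ± 0.11). Of 18 adaptors and kinases, all were tested in late cells, 1 was higher (Map3k14, 0.48 ± 0.14) and 2 were lower (Siva1, -1.06 ± 0.25, and Malt1, -0.48 ± 0.13), with a median of 0.0037. In the B6 gates 4 were higher, among them Traf5 (0.53 ± 0.14), and 3 lower, among them Pik3cd (-0.35 ± 0.07), with a median of 0.05.

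Among the 5 class contrasts the costimulatory list had its highest median from quiescent to signaled DP. There 6 of 9 were higher and 0 lower (51.6% of all genes were called), with a median of 2.92 against -0.03 for all genes, led by Pdcd1 (5.67 ± 0.23), Btla (4.83 ± 0.31) and Tnfsf11 (4.18 ± 0.28). In negative selection cells 6 were higher and 1 lower than in signaled DP (median 1.27, 31.8% of all genes called), and in Treg cells 5 were higher and 0 lower than in mature SP (median 1.60, 21.2% called). Ctla4, Pdcd1, Tnfrsf4, Tnfrsf9 and Tnfrsf18 were among the markers that named those classes, so these counts are not independent of the names. Of the 18 adaptors, 8 were higher and 5 lower in mature SP than in signaled DP cells, where 42.3% of all genes were called, with Traf5 (2.61 ± 0.20), Traf1 (1.30 ± 0.15) and Pik3cd (1.22 ± 0.10) in front.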

How the data were processed

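RNA and antibody UMI counts were measured by CITE-seq in 19 lanes of thymocytes from 17 mice. The authors deposited the counts per gene and per antibody for each barcode, made with Cell Ranger 3.1.0 (GRCm38, also named mm10, per the labels) and not normalized. The authors' pooled tables, which repeat the lanes, were not used here.

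Barcodes with at least 200 genes, at most 15% mitochondrial UMIs, 1000 to 10000 antibody UMIs and at least 70 antibodies were kept (72054), and 3029 doublets were removed, the barcodes with the highest share of simulated doublets among their neighbours, at a rate of 0.8% per 1000 barcodes in a lane. Lanes held 9893333 to 43303999 RNA UMIs. Cells were clustered (scanpy 1.11.5, Leiden at a resolution of 2, 2000 variable genes, 30 components, 20 neighbors) without the 5 genes and the pathway lists. The 40 clusters were named from fixed markers. 7 clusters (12165 cells) stayed unnamed, and names may differ from the study's. Positively selected cells were ordered by diffusion pseudotime in place of the study's method. The resolution, the choice of variable genes and the thresholds for branches were set after cluster composition was seen, not the members' values. The members and lists were chosen with earlier results of these data known, and the named genes were all 5 members, both antibodies, examples among the listed genes past the threshold and the 5 genes of most similar profile (Pearson's r of log2(CPM + 1) over the 20 points, genes of at least 20 CPM in one). One gene that this rule named is not reported here.

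Counts were summed per mouse and tested by edgeR 4.0.16 (quasi-likelihood, TMM, filterByExpr), with Benjamini-Hochberg adjustment over all genes or the 111 antibodies, with DESeq2 1.42.0 as an alternative. Late sums held 670945 to 9653053 RNA UMIs and sums per bin 70616 to 4284091. The gates were a log2 ratio of CD4 to CD8a antibody counts of at least 2 and at most -1. On simulated data 14.1%, 64.2% and 98.5% of genes changed by 1.5, 2 and 4-fold were recovered in the late comparison (9443 genes), and 67.2%, 89.4% and 100% in the gates (8594 genes). B6 classes and gates share an animal, so mouse is a block there. Same-numbered AND and F5 mice also share an experiment, whereas all MHC-deficient mice came from one experiment and all OT mice from another, so that numbers mark none there, and no block was used in the main fit. The correlation of same-numbered deviations was 0.17 (AND and F5), 0.01 (MHC) and 0.59 (OT). Alternatives were DESeq2, no filter on low counts, library-size scaling, no family covariate, replicate blocks, an order by a maturation score, doublets kept, the alternative branch (477 cells) kept, fated mice added to the class contrasts (12 to 17 mice a class with at least 10 cells), wider and narrower gates, other thinning, and each mouse left out. edgeR SEs were taken from the F statistic.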

Additional observations from a re-analysis of the deposited data

Results flagged for a closer look

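In 4 of 77 groups of 4 to 10 mice one mouse was far from the rest, where chance gives about 1 in 20. OT-I replicate 2, a shallow library, had late Cd40lg at 6.57 CPM (12 UMIs), and the next CD8-fated mouse was at 2.14. B6 replicate 5 had Tnfsf8 at 105 CPM in Treg cells (9 UMIs), and the next was at 39.0. B6 replicate 1 had CD28 antibody at 22.5 per 10000 in mature SP cells, next to 17.6, and at 29.5 in CD8 SP cells, next to 20.3.

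The course over the bins differed between the fates by the lineage-by-bin terms for Cd28 (adjusted p = 2.6e-06), Cd40lg (1.32e-18), Tnfsf8 (0.0357) and ICOS antibody (8.91e-04), by edgeR's quasi-likelihood test.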

How the results depend on the processing

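Tnfsf8 had the fewest counts of the members (2992 UMIs over all cells), and it did not pass the filter on low counts before bin 8. In late cells the direction and call of Cd28 (log2 0.99 to 1.26 leaving out each mouse), Cd40lg (4.86 to 5.59) and Tnfsf8 (1.23 to 1.498) held under each alternative tried, except Tnfsf8 without the family covariate (1.12). Icos passed with no filter on low counts (0.53) and ranged from 0.40 to 0.64 over mice left out. Cd27, never called, turned to -0.015 with library size, -0.035 with no family covariate, -0.012 with the alternative branch kept and -0.069 without both shallow OT mice, an alternative added after seeing the data, and ranged from -0.046 to 0.18 over mice left out. CD28 antibody turned to 0.030 with library size, and ranged from -0.34 to 0.053. ICOS antibody ranged from -0.0085 to 0.48. The genes called numbered 1023, and 464 with no family covariate, 1610 with no filter, 664 without MHCI-/- replicate 2 and 641 without MHCII-/- replicate 2. Antibodies called numbered 11, and 22 by DESeq2 and 17 without OT-I replicate 2.

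With pairs of equal replicate number as a replicate block the late log2 values were 1.14 (Cd28), 0.50 (Icos), 0.05 (Cd27), 4.98 (Cd40lg), 1.36 (Tnfsf8), -0.19 (CD28 antibody) and 0.25 (ICOS antibody), with 1285 genes called and no call of a member changed. Per bin, the block gave 1 bin for Cd27, as did DESeq2. Bins called numbered 3 for Cd28, 1 for Icos and 0 for Tnfsf8 with no family covariate, and for Tnfsf8 they numbered 1 with the maturation-score order and 4 with no filter. Over mice left out they were 0 to 1 for Cd27, 1 to 3 for Icos and 1 to 3 for Tnfsf8. With the mouse left out of the wild-type fits (no replicate block), fewer genes were called (276 against 2078 in the gates), and calls were lost for Icos (0.61), Tnfsf8 (0.69) and ICOS antibody (0.65) in the gates, CD28 antibody in signaled over quiescent DP (0.53), Cd40lg (-0.48) and ICOS antibody (0.87) in mature SP over signaled DP, Icos (0.38), Cd27 (-0.48) and ICOS antibody (0.36) in negative selection over signaled DP, and Cd40lg (-1.07) and CD28 antibody (-0.34) in Treg over mature SP. Cd28 turned to 0.0033 there.

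In the gates DESeq2 called 897 genes and lost Tnfsf8 (0.72). The maturation-score order lost Tnfsf8 (0.25) and gained CD28 antibody (0.43). Cd27 ranged from -0.0032 to 0.10 over mice left out. In signaled over quiescent DP, Cd27 passed with no filter (0.24) and with fated mice added (0.25), and ranged from 0.20 to 0.35. In mature SP over signaled DP, library size turned Icos to -0.082, and adding the fated mice lost Cd40lg (-0.33). In CD8 SP over signaled DP, Icos passed with library size (-0.47) and doublets kept (-0.37), turned to 0.11 with fated mice added, and ranged from -0.31 to -0.11. ICOS antibody passed by DESeq2 (0.36), library size (0.48) and fated mice added (0.35), and ranged from 0.23 to 0.51. In negative selection over signaled DP, Icos was lost with library size (0.29) and doublets kept (0.11) and ranged from 0.31 to 0.49. Doublets kept lost CD28 antibody (-0.34) and ICOS antibody (0.033). Cd40lg turned to 0.035 by DESeq2 and 0.23 with fated mice added, and ranged from -0.12 to 0.14. In Treg over mature SP, Cd28 turned to 0.021 by DESeq2 and 0.024 by library size and ranged from -0.068 to 0.049. Cd27 passed by DESeq2 (0.33), with no filter (0.28), library size (0.35) and doublets kept (0.35), and ranged from 0.25 to 0.38. CD28 antibody was lost with library size (-0.20) and doublets kept (-0.14), and ranged from -0.41 to -0.27. ICOS antibody passed with fated mice added (-0.36).

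The lineage-by-family terms passed for Cd40lg with no filter (adjusted p = 0.00837) and for CD28 antibody with the maturation-score order (0.0452). The lineage-by-bin terms passed for Icos with that order (0.0254) and with no filter (0.00564), and for Cd27 with no filter (0.0292), and were lost for Tnfsf8 with that order (0.681), where 682 genes passed in place of 1607. For shares of cells the difference was 14.2 percentage points for Cd28 unthinned, a lost call, and for Icos 0.971 at 1000 UMIs and -3.12 unthinned. Over mice left out it ranged from 13.5 to 18.9 (Cd28), -3.35 to 4.29 (Cd27) and 1.56 to 2.74 (Tnfsf8). The cause of these changes was not tested.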
